A study of Drosophila melanogaster with 3 samples.

Results

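Net is a DNA-binding regulator with a basic helix-loop-helix (bHLH) domain in *Drosophila melanogaster*, and the 1415 places on the X chromosome where its GFP fusion was found are described here. They are all the peaks on X in the optimal IDR-thresholded list on genome build dm6, which holds 7561 peaks on the 5 major chromosome arms. IDR, the irreproducible discovery rate, is a procedure meant to keep peaks that rank alike between replicates. The other 6146 of them lie on the autosomal arms 2L, 2R, 3L and 3R and served as the comparison, and 10 further peaks on chromosome 4 were left out. Within that list, which rests on the authors' signal and threshold, the members were taken by chromosome alone.

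The study was a chromatin immunoprecipitation with sequencing of whole prepupae with males and females pooled, of unknown age, from the strain net-GFP. This transgenic line stably expresses net with GFP at its C-terminal end, and an anti-GFP antibody was used on chromatin sheared by sonication. The 3 libraries, biological replicates 1, 3 and 4, form 1 group, and a control alignment that entered the authors' peak calling was not analysed here. The labels do not say whether the animals keep their own untagged net. Signals come from whole animals, so the cell types behind a peak are not known. Sequencing depth cannot be read from peak lists and is unknown here.

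Basic helix-loop-helix proteins bind as dimers to short E-box sites, and net is known in flies for limiting wing veins to their proper places. The X chromosome differs from the autosomes in copy number between the sexes. In males the MSL complex, with the noncoding RNAs roX1 and roX2, raises transcription from the X, and it enters the chromosome at sites with GA repeats. The fly X is also known to be rich in CA repeats. The number of X copies in the pooled animals and in the control is not given, so that an effect of copy number and a property of X sequence cannot be told apart here.

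The sequences under the 6 strongest X summits show what kind of DNA carried the signal. Each is the plus strand of dm6 around the summit, with E-boxes (CANNTG) in capitals, and the Ugalt window is shortened. The first summit lies in the promoter of Ugalt, the second in an intron of CG32772, the third in an exon of the noncoding RNA Vinr beside lncRNA:CR44619, the fourth in the Gapdh2 promoter, the next in an exon of lncRNA:CR44619 itself and the last in an intron of CG3726.
Ugalt, chrX:2703853-2703937: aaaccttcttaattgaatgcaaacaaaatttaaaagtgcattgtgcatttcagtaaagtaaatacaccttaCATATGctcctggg
CG32772, chrX:4910350-4910450: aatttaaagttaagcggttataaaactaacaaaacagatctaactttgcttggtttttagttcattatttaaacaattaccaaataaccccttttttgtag
lncRNA:CR44619, chrX:12751296-12751396: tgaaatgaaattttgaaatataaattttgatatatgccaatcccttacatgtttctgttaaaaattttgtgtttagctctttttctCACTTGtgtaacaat
Gapdh2, chrX:15867948-15868048: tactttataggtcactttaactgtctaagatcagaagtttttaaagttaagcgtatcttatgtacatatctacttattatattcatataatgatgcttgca
lncRNA:CR44619, chrX:12752326-12752426: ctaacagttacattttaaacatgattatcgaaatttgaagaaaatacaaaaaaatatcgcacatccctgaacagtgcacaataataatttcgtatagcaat
CG3726, chrX:5918847-5918947: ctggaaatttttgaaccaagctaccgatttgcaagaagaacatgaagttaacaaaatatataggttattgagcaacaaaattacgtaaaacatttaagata
An E-box is present in 2 of these 6 windows, CATATG at Ugalt and CACTTG in Vinr. The GC content of the windows printed is 31.8% at Ugalt, 25.7% at CG32772, 24.8% in Vinr, 26.7% at Gapdh2, 27.7% in lncRNA:CR44619 and 28.7% at CG3726. All of them are below the mean of 36.4% over all X summit windows of 101 bp.

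Intergenic sites were scarcer on X than on the autosomal arms. Of the X summits, 502 lay in promoters, meaning within 500 bp of a transcription start site (TSS), 747 in introns, 60 in exons and 106 between genes. The intergenic share was 7.49% on X, with an exact 95% binomial interval of 6.17% to 8.99%, and 17.8% on the autosomal arms. It was 17.9% on 2L, 13.5% on 2R, 23.8% on 3L and 15.4% on 3R, so that X lay below every other arm. The difference was -10.4 percentage points (Fisher's exact test, two-sided, adjusted p = 1.1e-23 over the 15 shares compared). Neighbouring peaks are not independent, and the p-values here cover counting error only.

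Introns held a larger share of the summits on X. The intron share was 52.8% on X, with an interval of 50.2% to 55.4%, and 42.9% on the autosomal arms. The arms gave 41.2% on 2L, 44.0% on 2R, 40.8% on 3L and 45.5% on 3R, all below X (Fisher's exact test, adjusted p = 1.8e-10). Exons held 4.24% of X summits against 2.44% elsewhere (Fisher's exact test, adjusted p = 0.00211), a difference that did not pass the test in the stronger 50% of the list. The promoter share was 35.5% on X and 36.8% on the autosomal arms, and the difference of -1.29 points did not pass the test (Fisher's exact test, adjusted p = 0.562). That value depended on the settings: it was -4.46 points with a promoter limit of 200 bp (Fisher's exact test, adjusted p = 0.00171) and -3.80 without chromosome 3 in the reference (adjusted p = 0.0447, same test), and it was above 0 in 3 of 11 alternatives, at 0.333 to 0.658.

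**Figure D1:**
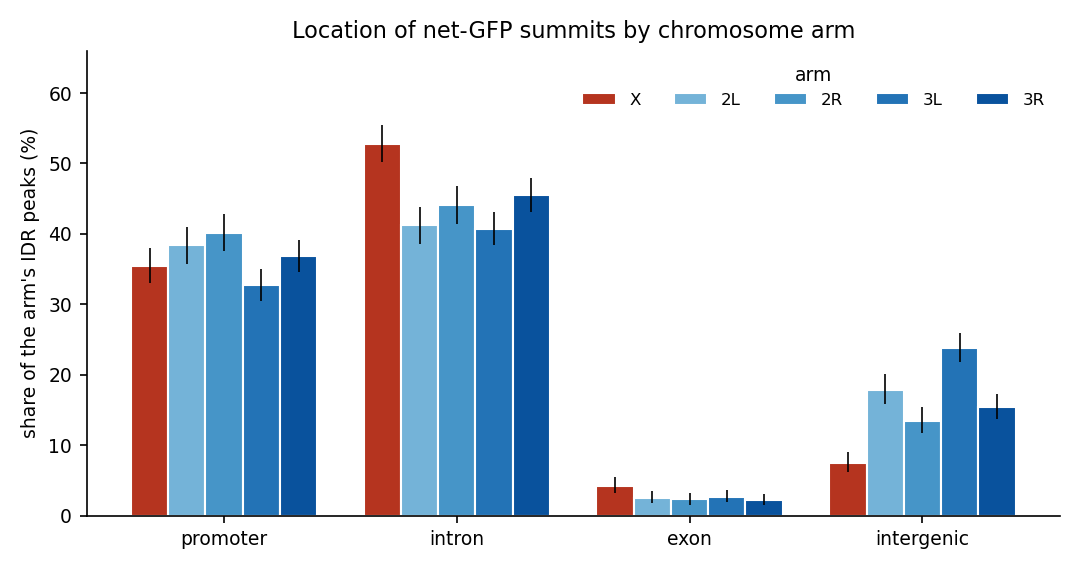
Bars give the share of each arm's IDR peaks (%) whose summit lies in a promoter, intron, exon or between genes, with exact 95% binomial intervals. The X bar, first in each set, is above all others for introns and below all others for intergenic sequence, where it stands at 7.49%.

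The same pattern stood in each library taken alone. Each library's own list was cut to its strongest peaks, as many as the IDR list holds. There the intergenic share on X was 6.28% in replicate 1, 7.12% in replicate 3 and 7.53% in replicate 4. The autosomal shares in the same order were 16.3%, 16.9% and 18.9%, so the X and autosomal values did not overlap. The difference was -10.4 ± 0.817 points (SD, n = 3). For introns the X shares were 50.7%, 49.6% and 54.5% and the autosomal shares 40.8%, 40.7% and 44.1%, a difference of 9.71 ± 0.770 points (SD, n = 3). Exons differed by 1.67 ± 0.434 points (SD, n = 3), with X higher in 3 of 3 libraries. An exact sign-flip test over 3 libraries cannot give a two-sided p below 0.25, so none was run.

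**Figure D2:**
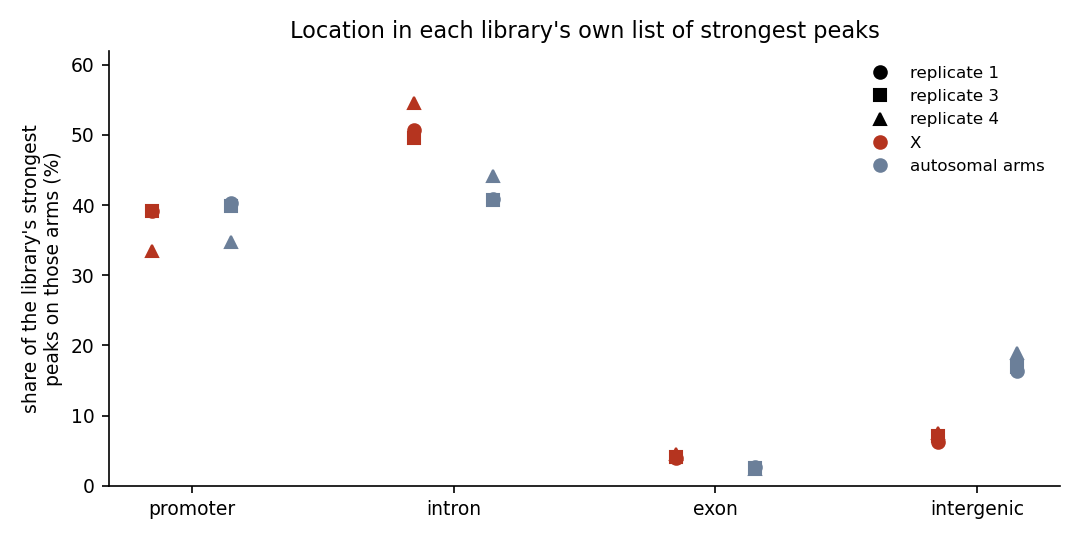
Each point is the share (%) of 1 library's strongest peaks on X (red) or on the autosomal arms (grey) in a location, and the shape of the point marks the replicate. In introns the 3 X points sit between 49.6% and 54.5% and the autosomal points between 40.7% and 44.1%.

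X has less intergenic sequence to begin with, and summits were therefore also counted per Mb of each kind of sequence. Intergenic sequence beyond 500 bp from a TSS made up 22.6% of X and 28.4% of the autosomal arms. X held 106 intergenic summits in 5.31 Mb of it and the autosomal arms 1097 in 31.0 Mb, a ratio of densities of 0.563 (two-sided exact binomial test; adjusted p = 6.8e-09 over 5 densities). The autosomal density was 35.4 per Mb together and ran from 24.2 on 2R to 44.7 on 3L. Introns held 73.2 summits per Mb on X and 62.8 elsewhere, which is 1.17 times as many (exact binomial, adjusted p = 6.7e-04). Exons held 11.9 against 7.16 per Mb, which is 1.66 times as many (exact binomial, adjusted p = 0.00262). Promoter sequence held 172 against 152 summits per Mb, which is 1.13 times as many (exact binomial, adjusted p = 0.0147), although the promoter share of summits did not differ past the test.

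The shortage of intergenic summits was seen near genes and far from them. At 501 to 2000 bp from a TSS the ratio of X to autosomal density was 0.675 (exact binomial test, adjusted p = 0.0166 over 6 bands). At 2001 to 5000 bp it was 0.559 (exact binomial test, adjusted p = 0.00258). Beyond 5000 bp X held 8.84 intergenic summits per Mb and the autosomal arms 20.6, which is 0.429 times as many (exact binomial, adjusted p = 2.4e-05). The ratios fall with distance, but the difference between bands was not tested. Intron densities were higher on X by a ratio of 1.13 to 1.18 in the 3 bands, and only the band beyond 5000 bp passed the test (exact binomial test, adjusted p = 0.0275). There the X value of 49.7 per Mb lay inside the range of the autosomal arms, 38.1 to 49.9.

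**Figure D3:**
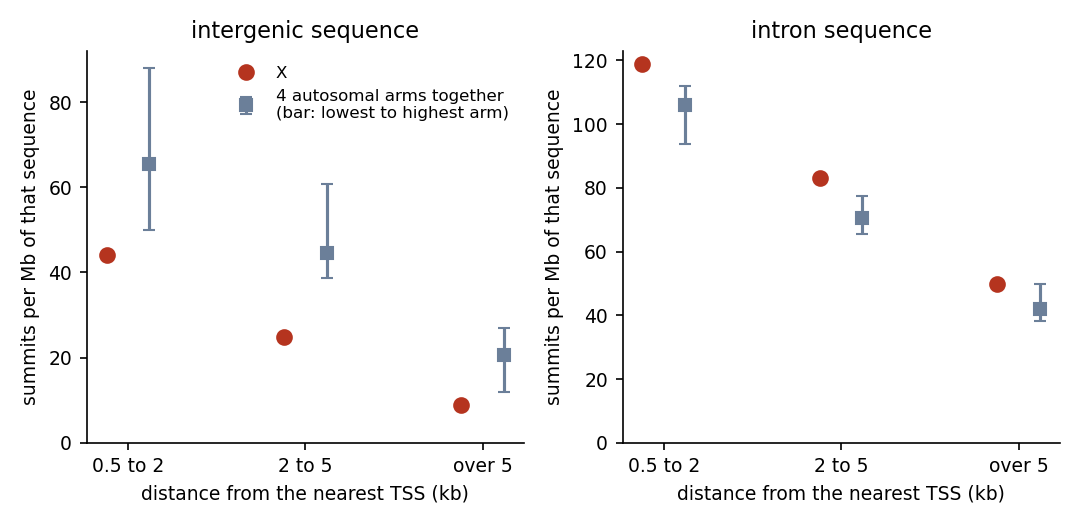
Points give summits per Mb of intergenic (left) or intron (right) sequence by distance from the nearest TSS in kb, for X (red) and for the autosomal arms together (grey, with a bar from the lowest to the highest arm). In intergenic sequence X is below the lowest autosomal arm at every distance, and beyond 5 kb it stands at 8.84 against 20.6.

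Weaker peaks showed the difference as well. The relaxed pooled list holds peaks and background together, so these calls need not be net sites. Among peaks of the relaxed pooled list that overlap no IDR peak, 17.1% of 3759 X summits were intergenic against 27.6% of 16632 autosomal summits (Fisher's exact test, adjusted p = 1.2e-42 over 4 locations). In introns the shares were 58.0% and 49.2% (Fisher's exact test, adjusted p = 3.7e-22). That difference of 8.79 points is close to the 9.85 points in the IDR list. The intergenic difference was -10.5 points among the weaker peaks and -10.4 points in the IDR list. In points, neither the intron excess nor the intergenic shortage on X is particular to the IDR peaks. A logistic model over both kinds of peak gave the odds of an intergenic summit on X, relative to the autosomes, as 0.690 times as high in the IDR list as among the weaker peaks (95% interval 0.550 to 0.867). The same ratio was 1.55 for exons (95% interval 1.10 to 2.19) and 1.04 for introns (95% interval 0.910 to 1.19).

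Rank and repeatability were compared next, and over the whole list neither difference passed the test. The strongest 25% of the list held 26.1% of X peaks and 24.7% of autosomal peaks (Fisher's exact test, adjusted p = 0.512). A summit within 100 bp was present among the strongest peaks of all 3 libraries for 58.5% of X peaks and 56.4% of autosomal peaks (Fisher's exact test, adjusted p = 0.272). In the stronger 50% of the list this difference was 3.68 points and passed (Fisher's exact test, adjusted p = 0.0243). On X, 828 peaks were matched in 3 libraries, 370 in 2, 192 in 1 and 25 in none. Intergenic peaks were matched in all 3 libraries in 48.1% of cases on X and 55.2% on the autosomal arms, and in none in 3.77% and 1.00%. The share matched in all 3 was 51.7% on X and 52.7% elsewhere for exon peaks, 59.2% and 56.9% for intron peaks, and 60.6% and 56.6% for promoter peaks. These differences by location were not tested.

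The number of peaks on X was close to what its length gives. X held 60.3 summits per Mb, inside the range of the autosomal arms, 53.2 to 60.5, with 3L the densest. Its share of the major-arm peaks was 1.05 times its share of their length (exact binomial test, two-sided, p = 0.0280). In the libraries taken alone the ratio was 0.998 in replicate 1, 1.02 in replicate 3 and 1.08 in replicate 4, and only replicate 4 passed the test (exact binomial test, p = 0.00134). Against the X share of the weaker peaks it was 1.02 (exact binomial test, p = 0.533). The IDR list on build dm3 gave 1.07, which passed (exact binomial test, p = 0.00466).

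The strongest peak of the whole list lies on X, in the promoter of Ugalt, which encodes a transporter of UDP-galactose. Its summit at position 2703887 is 35 bp upstream of the TSS, the authors' signal in the pooled list is 3742, and it ranked 2 in replicate 1, 1 in replicate 3 and 1 in replicate 4. The intron peak of CG32772 has a signal of 2903 and ranked 12, 7 and 2 in the same order. A second CG32772 peak, 19 bp from the TSS, has a signal of 1424 and ranked 54, 78 and 132. All 15 X peaks of highest signal were matched in 3 of 3 libraries.

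A pair of noncoding RNA genes carried 2 of the 5 strongest X peaks. The exon peak of Vinr, 521 bp upstream of lncRNA:CR44619, has a signal of 2355 and ranked 22, 29 and 12 in replicates 1, 3 and 4. The exon peak inside lncRNA:CR44619 has a signal of 1808 and ranked 34, 48 and 36. Another exon summit in lncRNA:CR44619 has a signal of 849, and these are 3 of the 4 strongest exon peaks on X. Vinr is a noncoding RNA known from the fly's innate immune response.

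The other 10 of the 15 strongest X peaks lie at genes of several kinds. Gapdh2, a glycolytic enzyme, has a promoter peak of signal 1936 that ranked 31, 46 and 24. An intron peak of CG3726 has a signal of 1751 and ranked 44, 42 and 43, with an SD of 1 rank over the libraries. The promoter peak of CG4586 reached 1615, and the intron peak of LPCAT, an acyltransferase of membrane lipids, reached 1592. Hr4, a nuclear receptor induced by ecdysone, has an intron peak (chrX:1951711-1952099) 9967 bp from the nearest TSS, with a signal of 1538 and ranks of 117, 58 and 51. The remaining X peaks among the 15 strongest lie at lncRNA:CR45668 with 1395, bves with 1394, prage with 1380, the transcription factor gene NFAT with 1370 and the HMG-box gene bbx with 1347. Replicates placed Hr4 less evenly, with an SD of 36.3 ranks, than CG4586, with 3.79.

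The strongest intergenic peaks on X stood well below these. They are shown because intergenic summits were the class in which X differed most, with E-boxes in capitals.
Atf3, chrX:1277131-1277231: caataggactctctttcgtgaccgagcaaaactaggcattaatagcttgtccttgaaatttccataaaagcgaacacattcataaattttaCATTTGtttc
CG17896, chrX:493954-494054: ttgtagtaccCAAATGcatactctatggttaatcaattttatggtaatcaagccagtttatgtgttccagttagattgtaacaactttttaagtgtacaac
The first lies 1897 bp upstream of Atf3, a basic leucine zipper factor, has a signal of 1076 and ranked 161, 221 and 162 in replicates 1, 3 and 4. The second lies 509 bp upstream of CG17896, just outside the promoter limit, has a signal of 1064 and ranked 254, 188 and 146. The third lies 597 bp upstream of lncRNA:CR42794, has a signal of 1000 and ranked 401, 316 and 150. The fourth lies 3745 bp upstream of cut (ct), a homeodomain gene of wing margin and sense organs. It has a signal of 862 and ranked 293, 380 and 330. These peaks stand at overall ranks 172, 179, 209 and 313 of the list.

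Some long X genes held many summits. The gene kirre, an immunoglobulin-domain adhesion protein of myoblast fusion, had 29 summits over its span of 394149 bp (chrX:2740384-3134532), or 7.36 per 100 kb, next to 6.01 per 100 kb for X as a whole. CG1677 had 22 summits, and its span also contains brk and other genes. CG43658 had 21 and Tlk, a chromatin-linked kinase, had 19. Raf, the kinase below Ras, had 16 and Mnt, a helix-loop-helix partner of Max, had 15. Hr4 had 14, and dnc, the cAMP phosphodiesterase of learning, had 13, as had spri, CG12535 and the wing regulator Bx. Counting only summits inside the gene, the density per 100 kb ran from 6.57 at dnc and 7.36 at kirre to 25.8 at Tlk, 28.9 at Raf and 50.2 at Mnt. These genes were picked for their many summits, and the densities were not tested. Raf, Hr4, kirre, CG1677 and CG12535 had none of their summits within 500 bp of their own TSSs, while dnc had 8 there. Of all X protein-coding genes, 429 had 1 summit, 181 had 2 and 91 had 5 or more.

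Along the chromosome the peaks were uneven. The fourth megabase held the most summits, 102, with 55 protein-coding genes starting in it, and Tlk, Mnt and dnc lie there. The final 2 bins, toward the centromere, held 5 and 1. In 4 equal stretches of the chromosome, from its start, the density was 65.8, 77.3, 61.2 and 36.2 summits per Mb. The widest gap between neighbouring summits was 847900 bp. Intergenic summits numbered 12 or fewer in every megabase.

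**Figure D4:**
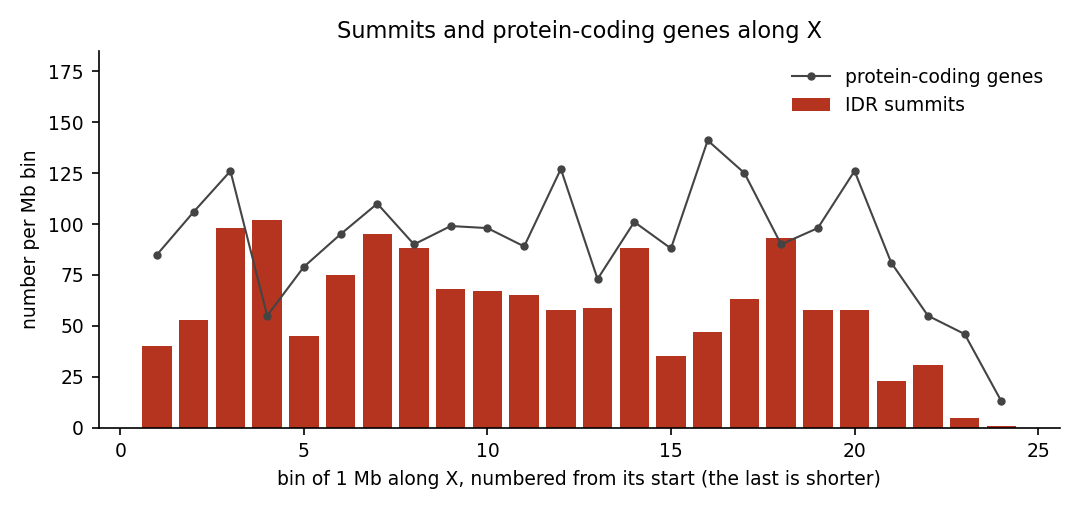
Bars give the number of IDR summits and the line the number of protein-coding genes that start in each bin of 1 Mb along X. Bin 4 holds 102 summits with 55 genes, and the last bins hold 5 and 1 summits.

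A protein-coding gene was counted as bound when a summit lay in it or within 2 kb of it, which held for 831 of 2196 genes on X, 37.8%, against 34.0% of 11669 on the autosomal arms (Fisher's exact test, adjusted p = 0.00211). Over all 5 arms 34.6% were bound. X genes are longer, with a median span of 2521 bp against 2088 bp, and long genes were bound more often. In the shortest 25% of genes 16.6% were bound on X and 18.3% elsewhere, and in the longest 61.7% and 58.4%. With span in a logistic model the difference was 1.10 points and did not pass the test.

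The lists that follow group X genes by role and were read against the 37.8% of all X protein-coding genes that were bound. They carry no test. Since long genes were bound more often, the bound share of X genes weighted to the span of the members is given too. Several genes stand in more than 1 list, and a summit near nested genes counts for each of them.

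**Figure D5:**
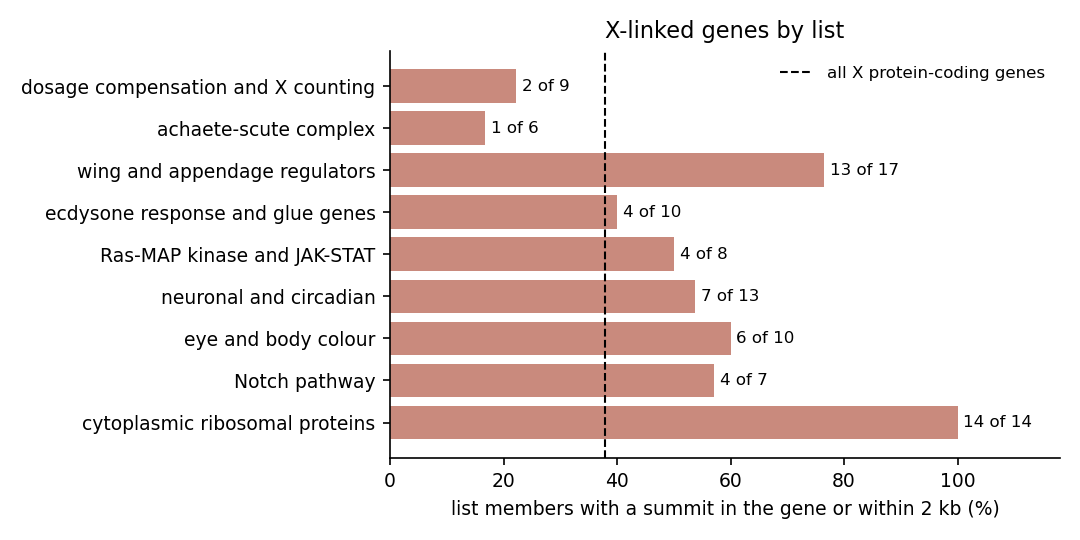
Bars give the share (%) of each list's X-linked members with a summit in the gene or within 2 kb, with the counts beside them, and the dashed line marks the 37.8% of all X protein-coding genes. The 14 ribosomal protein genes were all bound, and 13 of 17 wing and appendage genes were.

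Every one of the 14 X-linked genes for cytoplasmic ribosomal proteins had a summit within 500 bp of its own TSS, which held for 19.4% of all X protein-coding genes. None of the 14 is among the longest 25% of genes, and of X genes with their spans 26.2% were bound. Their strongest signals ran from 235 at RpL35 to 587 at RpS28b, well below the leading X peaks. RpS28b ranked 615, 849 and 1012 in replicates 1, 3 and 4. Its strongest summit is nearest to another gene, l(1)G0320. RpS10b, with a signal of 552, ranked 756, 855 and 1164, and its summit lies 4 bp from the TSS. RpS5a had 462 and RpL22 had 419. RpS14a and RpS14b are near-identical neighbours, each counted with 2 summits. The stronger summit, of signal 297, lies 35 bp from the RpS14b TSS and counts for both genes. The weaker has a signal of 197. Their counts are therefore not independent.

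Genes of wing and appendage patterning were bound in 13 of 17 cases. Most are long, with 13 among the longest 25% of genes, and of X genes with their spans 55.4% were bound. The kinase gene sgg, which acts in Wnt signalling, had 7 summits and a promoter peak of signal 1104 that ranked 147, 260 and 139. The integrin gene if had 8 summits, with the strongest at 614 in the neighbouring gene goe. The Dpp-pathway repressor gene brk had 4 summits and a strongest signal of 569, all of them outside the gene and within 2 kb of it. Notch (N), the receptor, had 6 summits inside the gene with a strongest signal of 562, none at its own TSSs. The members with no summit were sd, dsh, cv and r.

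Among Notch pathway genes 4 of 7 were bound, next to 46.8% of X genes with their spans. The co-activator gene nej led with a signal of 699, followed by N, by dx with 346 and by amx with 210. The nej peak lies outside that gene, in the promoter of lncRNA:CR42657. The dx peak is the one in the RpL7A promoter, and that of amx lies in an intron of Dsor1. The members pcx, l(1)sc and sno had no summit.

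Ecdysone response and glue genes were bound in 4 of 10 cases, next to 29.3% of X genes with their spans. Hr4 led the list with 1538, and br, the early ecdysone gene, had 6 summits with a strongest signal of 343 that lies at the nested gene Mur2B. The receptor partner usp had a promoter peak of 205, and dor, an endosome trafficking gene, had 184 from a summit nearest to CG3740. The glue gene Sgs4 and its neighbours in the list had none.

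In Ras and JAK-STAT signalling 4 of 8 genes were bound, next to 51.7% of X genes with their spans. Raf led with a signal of 1121 and ranked 306, 104 and 167. The phosphatase gene csw had 463 at its promoter, and the receptor gene sev had 165. Dsor1, the next kinase after Raf, had 234 from a summit outside the gene. That summit lies in an intron of CG17754 and had no match in the lists of replicate 1. The JAK kinase gene hop and the ligand genes upd1, upd2 and upd3 had no summit.

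Neuronal and circadian genes were bound in 7 of 13 cases. All 13 are among the longest 25% of genes, of which 61.7% were bound on X. The RNA-binding gene elav had a promoter peak of 1166 that ranked 175, 137 and 109, and norpA, the phospholipase of phototransduction, had an intron peak of 1030 that ranked 274, 200 and 156. dnc reached 985 at a promoter and Nrg, an adhesion gene, reached 245. The first 3 stood among the strongest 216 peaks of the list, while Nrg was at rank 3362 and had no match in the lists of replicate 1.

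Eye and body colour genes, with a few genes of eye pattern, were bound in 6 of 10 cases, next to 53.1% of X genes with their spans. The list also holds m, a wing gene that was not placed in the wing list. kirre led with 746, y had 319, w had 225 and v had 195. The summits counted for y, w and v lie outside those genes. The kirre and w summits both lie inside kirre and CG32795. That of y lies in an intron of CG32816, nearest to lncRNA:yar, and that of v in the CG2145 promoter. The members rb, car, m and g had no summit. In the achaete-scute complex, whose proneural genes are also helix-loop-helix factors, y alone was bound, 1 of 6, next to 26.8% at the same spans. It was counted by that same summit outside the gene. The members sc, ac, ase, l(1)sc and Pgcl were not bound.

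The genes of dosage compensation and X counting were bound in 2 of 9 cases. Of the 7 protein-coding members 1 was bound, next to 38.2% of X genes with their spans. Sxl, the switch gene of sex determination, had 4 summits, 3 of them within 500 bp of a TSS of its own, with a strongest signal of 356 that ranked 2194, 1644 and 2166. lncRNA:roX2 had 1 summit of signal 236, nearest to the neighbouring gene nod. Of all X genes for long and other ncRNA, 26.9% were bound. lncRNA:roX1, mof, snf, run, sisA, sc and upd1 had none.

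In sequence the X summits were close to the autosomal ones. Mean GC content was 36.4% ± 9.66 (SD over 1415 windows) on X and 36.6% ± 10.3 (SD over 6146 windows) on the autosomal arms. In windows centred 250 bp to the left and right it was 43.4% and 43.8% on X. An E-box CANNTG was present in 36.3% of X windows and 36.7% of autosomal windows (Fisher's exact test, adjusted p = 0.950). CATATG was in 4.66% against 3.71% and CACGTG in 0.424% against 0.879%, each with an adjusted p of 0.233 in Fisher's exact test. The X interval for CANNTG was 33.7% to 38.8%. Motifs were read on both strands in windows of 101 bp, and a match is only a run of letters.

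Of the 7 motifs searched, the CA repeat CACACACA was the only one past the test. It was in 44 X windows, 3.11%, against 1.99% of autosomal windows (Fisher's exact test, adjusted p = 0.0352), with the autosomal arms at 1.71% to 2.30%. It did not pass in 5 of 9 alternatives. Flanks held it more often on X as well, with 5.94% against 4.15% in the right flank (Fisher's exact test, adjusted p = 0.0303 over 14 flank shares) and 5.44% against 4.28% in the left (adjusted p = 0.149). The following are strong X windows with the repeat, printed on the plus strand with the repeat in capitals on either strand.
Drak, chrX:11494871-11494971: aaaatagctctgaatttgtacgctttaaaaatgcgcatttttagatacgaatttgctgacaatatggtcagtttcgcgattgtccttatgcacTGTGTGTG
CG32772, chrX:4910567-4910667: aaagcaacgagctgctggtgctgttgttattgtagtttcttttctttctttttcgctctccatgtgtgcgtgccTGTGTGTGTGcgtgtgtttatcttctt
The first lies in an intron of Drak, has a signal of 655 and rank 610, and the second lies in the CG32772 intron near the much stronger summit shown above, with a signal of 449. The GA repeat GAGAGAGA was in 1.41% of X and 1.48% of autosomal summit windows (Fisher's exact test, adjusted p = 1.00). In the left flank it was in 2.83% on X against 1.55% (Fisher's exact test, adjusted p = 0.0244), and in the right flank in 2.76% against 1.77%, which did not pass (adjusted p = 0.0670). DRE TATCGATA stood at 0.636% against 0.667% and the nuclear receptor half-site AGGTCA at 1.55% against 1.84%, with no difference past the test.

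An open search over 2080 words of 6 bases called 0% of them between X and autosomal summits in windows of 101 bp. By Fisher's exact test with Benjamini-Hochberg adjustment the smallest adjusted p was 0.161, and 141 words had an unadjusted p under 0.05. The result depended on the window: with 100 bp on each side of the summit 6 of the 2080 words were called. Of these, 5 were higher on X and 1 lower (Fisher's exact test, smallest adjusted p = 0.0198). In the flanks 9 words, 0.433%, were called, 8 higher on X and 1 lower. Both flanks of each peak entered that test, so it had more windows than the test at summits. The numbers of calls therefore cannot be compared directly. At summits AAAAAA was in 32.7% of X and 27.8% of autosomal windows and was not called (Fisher's exact test, adjusted p = 0.161). AAAAAA was in 23.7% of X flanks and 18.9% of autosomal flanks (Fisher's exact test, adjusted p = 2.7e-05), and CACACA in 14.6% and 12.0% (adjusted p = 0.0472). CCTGCC was the word lower on X, with 3.00% against 4.55% (Fisher's exact test, adjusted p = 0.0472).

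Words chosen at autosomal summits were also counted on X. They were the 10 words of 8 bases most enriched at autosomal summits over their flanks, out of 1261 candidates. On X, 8 of the 10 passed the test as more frequent at summits than in flanks. Both flanks of each peak entered as separate windows, and their pairing with the summit was not used. The other candidates were not counted on X, so the share over all words is not known. TATATTAA was in 2.40% of X summit windows and 0.530% of X flank windows, 4.53 times as often (exact Fisher test, adjusted p = 2.8e-06 over 10 words). TCTTAAAA was in 1.63% and 0.389%, 4.18 times as often (exact Fisher test, adjusted p = 3.0e-04). GAATATTA and ATTCTTAA, 1.24 and 1.65 times as often at X summits as in X flanks, did not pass. None of the 10 differed between X and autosomal summits past the test, with unadjusted p from 0.115 up. All 10 are rich in A and T, and summits have a lower GC content than flanks. The part of base composition in these ratios was not tested. That net summits are AT-rich was known from the same data when the words were sought, so these counts are no independent support.

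Strong X windows with TCTTAAAA, ATATTAAG and TATATTAA, in this order, show these words in place, in capitals on either strand.
LPCAT, chrX:9579225-9579325: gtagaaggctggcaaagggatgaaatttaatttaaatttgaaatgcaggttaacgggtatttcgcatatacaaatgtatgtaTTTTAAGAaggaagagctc
Ten-a, chrX:12226725-12226825: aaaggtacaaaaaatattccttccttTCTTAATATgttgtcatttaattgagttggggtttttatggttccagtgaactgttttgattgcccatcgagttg
Ptp4E, chrX:4939950-4940050: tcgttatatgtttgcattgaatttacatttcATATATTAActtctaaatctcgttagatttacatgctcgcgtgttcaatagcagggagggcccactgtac
The LPCAT window holds TCTTAAAA on the minus strand 712 bp downstream of a TSS and has a signal of 1592. That of Ten-a, an adhesion gene of axon targeting, lies in an intron with a signal of 751 and holds 2 overlapping words. That of Ptp4E, a receptor tyrosine phosphatase gene, lies in the promoter with a signal of 827 and also holds 2 overlapping words.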

How the data were processed

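Whole prepupae of strain net-GFP gave 3 ChIP-seq libraries in 1 group. The authors deposited peak lists on dm6 and dm3: a relaxed list per library, a relaxed list on the pooled alignments called with a control alignment, and an IDR-thresholded list, per the file headers and the deposited descriptions. The signal per peak and the −log10 q-value per peak are the authors' values as deposited. Signal served for ranking inside each list alone, since its scale is theirs, and the −log10 q-value was not used because many peaks share its highest value. The names of the programs for alignment and peak calling were not given in the sources used here. The IDR list is the top of the pooled list by signal, so its rank is that of the pooled libraries. The relaxed lists hold 30000 peaks each, and as many of a library's strongest were used as the IDR list holds.

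Summits were placed with the Ensembl 115 annotation (BDGP6, which has the dm6 coordinates) without pseudogenes and transposable elements, in the order promoter, exon, intron, intergenic. X was compared with the 4 autosomal arms by Fisher's exact test over 15 shares with Benjamini-Hochberg adjustment, and densities by exact binomial tests. Exact binomial (Clopper-Pearson) intervals cover counting error only. Scripts used Python 3.11.15, SciPy 1.17.1 and statsmodels 0.14.6. The word test was tested on simulated windows.

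The members, gene lists and tests were chosen with earlier results of these data known. Named genes are the 15 X peaks of highest signal, the 10 genes with the most summits, up to 4 members a list with the strongest peaks, and unbound members where there are 5 or fewer. The strongest intergenic peaks, the third lncRNA:CR44619 exon peak, and further unbound members in longer lists, were named after their values were seen, as were the words with no call between summits. Symbols of roX1, roX2 and Pgcl were matched to the annotation after the files were read. Densities per Mb, distance bands, the comparison of location with the weaker peaks, coding genes only, full megabases, gene span (also as a background of the lists) and the words of 8 bases were added after seeing the data. Sequences are from the NCBI RefSeq genome of the same assembly.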

Additional observations from a re-analysis of the deposited data

How the results depend on the processing

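The lower intergenic share and the higher intron share on X kept their direction and passed the test in all 11 alternatives each, and the ratio of intergenic densities in its 4, which gave 0.429 to 0.675. Of the other shares (X minus autosomal, in percentage points), several did not. With chromosome 2 left out of the reference the promoter difference was 0.658, the share with GC below the median -0.921, the E-box CANNTG 0.567, the CA repeat 0.968 and the bound genes 2.06, the last 2 no longer past the test. With chromosome 3 left out the promoter difference was -3.80, past the test, and the DRE 0.0786. With 1 peak per merged region GC was -0.561, CANNTG 1.06 and the GA repeat 0.108. In the stronger 50% of the list the exon difference was 0.993, the CA repeat 0.479 and the bound genes 2.14, none past the test, the match in all libraries was 3.68, past the test, GC -2.10 and CANNTG 1.81. With 100 bp on each side GC was -2.16, CANNTG 1.09, the GA repeat 0.600 and the CA repeat 1.45, the last not past the test. With GC in a logistic model the GA repeat was 0.0119. A promoter limit of 200 bp gave a promoter difference of -4.46, past the test, and coding genes alone gave 0.333. The strongest 50% gave -1.60 in place of the strongest 25%, and a match within 200 bp gave -0.0495. Bound genes were 1.39 by summits at their own TSS and 1.10 with gene span, neither past the test. The X share over its length was 0.998 in replicate 1, 1.02 in replicate 3 and 1.02 against weaker peaks. The words of 6 bases called were 9 in flanks and 6 with 100 bp on each side. The cause of these changes was not tested.

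Each library was left out in turn only by asking for a match in the others. The list and its summits still came from all 3 libraries, so the ranges do not show a list made without that library. The promoter difference was -1.33 to 0.424 and the intron difference 9.41 to 10.6. The exon difference was 1.46 to 1.71 and the intergenic difference -11.4 to -10.8. GC ran from -2.62 to 0.397, CANNTG from 0.101 to 0.993, the GA repeat from -0.105 to 0.210, the half-site from -0.170 to 0.0584 and the CA repeat from 1.08 to 1.31, with the CA repeat not past the test without replicate 1 (1.08) or replicate 4 (1.27). Words of 6 bases were not recounted this way. No paired analysis was possible because no 2 groups of samples share replicate numbers. X and autosomal shares were set side by side within each library, where an exact test over 3 libraries cannot go below p = 0.25. The depth of the libraries is unknown, so that peaks missing on X cannot be told from peaks below detection.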
